A study of Rattus norvegicus with 10 samples.

Results

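The 10 genes Syt1, Syt3, Syt4, Syt5, Syt7, Syt9, Syt11, Syt13, Syt14 and Syt17 encode synaptotagmins, and they were chosen by name from the 23918 genes of the deposited table. All 10 were among the 12941 genes with enough reads to be tested. They were measured by RNA-seq in β-cells, which make insulin in the pancreatic islet and were here sorted by flow cytometry on their autofluorescence from dispersed islets of adult Sprague-Dawley rats. The siScrt1 group received 4 pooled siRNAs against Scrt1, the siCtrl group received a negative control siRNA, and RNA was taken 48 h later. Each group comprised 5 libraries, numbered 1 to 5 in siCtrl and lettered A to E in siScrt1, and both groups shared the transfection reagent, the culture and the sort. Scrt1 is a zinc finger repressor of the Snail superfamily, and the study asked which genes respond to its loss in β-cells.

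Synaptotagmins are membrane trafficking proteins that carry a pair of C2 domains. In the classical members these domains bind Ca2+, and the protein then engages membrane phospholipids and the SNARE proteins that fuse a vesicle with the plasma membrane. In β-cells this step links glucose-driven Ca2+ entry to the release of insulin granules. Syt1, Syt3, Syt5, Syt7 and Syt9 are classical Ca2+ binders, whereas Syt4 and Syt11 carry a substitution of a Ca2+-coordinating residue in the first C2 domain, and Syt13, Syt14 and Syt17 lack residues needed for Ca2+ binding. Syt4 is known to rise as β-cells mature after birth and to lower the Ca2+ sensitivity of insulin release.

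The promoter and accessible sequences of Syt4 are shown because Syt4 differed most between the groups in units of its standard error and was singled out by the study near an accessible region. The promoters of Syt3 and of Syt11, the closest relative of Syt4, stand beside it for comparison. The promoter sequences are the 250 bases before the annotated start, from RefSeq on the GRCr8 assembly, and capitals mark the motif CAGGTG or its reverse complement. The 3 windows lie at chr18:23320864-23321113 (minus strand), chr1:104017874-104018123 (plus strand) and chr2:176529776-176530025 (minus strand), and each ends just before the start of the gene named.

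Syt4: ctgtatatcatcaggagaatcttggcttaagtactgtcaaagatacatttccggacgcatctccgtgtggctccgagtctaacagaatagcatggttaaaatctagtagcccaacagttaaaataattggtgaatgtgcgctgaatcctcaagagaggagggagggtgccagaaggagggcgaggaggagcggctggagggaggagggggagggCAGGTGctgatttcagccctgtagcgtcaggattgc

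Syt3: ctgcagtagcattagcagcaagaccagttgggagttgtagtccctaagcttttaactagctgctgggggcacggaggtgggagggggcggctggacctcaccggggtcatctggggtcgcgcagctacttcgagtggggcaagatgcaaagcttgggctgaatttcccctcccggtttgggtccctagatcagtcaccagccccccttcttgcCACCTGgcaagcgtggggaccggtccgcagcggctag

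Syt11: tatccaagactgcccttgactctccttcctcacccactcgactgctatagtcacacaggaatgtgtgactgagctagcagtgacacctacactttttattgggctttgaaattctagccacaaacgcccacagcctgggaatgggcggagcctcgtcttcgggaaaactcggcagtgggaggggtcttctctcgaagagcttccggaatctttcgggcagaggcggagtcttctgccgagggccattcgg

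The accessible region near Syt4 that the study cloned into a reporter lies at chr18:23903464-23903763 in its first 300 of 306 bases (Rn5 assembly, on a strand the study does not name), and it holds no capitals because neither motif searched was found in it. The study lists it as upstream of Syt4, and it was not placed relative to exons here.

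Syt4 accessible region: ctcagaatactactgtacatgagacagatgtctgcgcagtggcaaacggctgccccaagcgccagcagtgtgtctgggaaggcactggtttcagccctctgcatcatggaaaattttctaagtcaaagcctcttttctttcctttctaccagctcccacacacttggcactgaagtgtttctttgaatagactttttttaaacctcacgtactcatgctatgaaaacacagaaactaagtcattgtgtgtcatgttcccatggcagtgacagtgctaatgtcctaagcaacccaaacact

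The SCRT1 consensus used by the study is GAGCAACAGGTGGTT. Its core CAACAGGTG and the E-box CAGGTG within that core were searched on both strands, so that every core match is also an E-box match. Of 27457 genes with a promoter in the RefSeq table, 0.200% held the core and 17.0% held the E-box in the 250 bases. The table held 6 of the 10 synaptotagmins, namely Syt1, Syt3, Syt4, Syt9, Syt11 and Syt14. The E-box stood 30 bases before the Syt4 start and 31 bases before the Syt3 start, and it occurred in 7 of the 9 alternative Syt14 windows. Most of these Syt14 windows are the same stretch shifted by a few bases, and they share a single match. The E-box was not in the windows of Syt1, Syt9 and Syt11, and the core was in none of the 6 genes' windows. These matches describe exact letters in short windows and were not compared with binding data. The study instead scanned accessible sites with position weight matrices, a different search that was not repeated here. A sequence without a match here may still hold a site by that scan.

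Library totals ranged from 11901342 to 17444034 reads. The targeted gene Scrt1 was at 156 to 250.4 scaled counts in siCtrl and at 22.8 to 83.3 in siScrt1, without overlap, which gave a log2 fold change of -2.06 with an SE of 0.31 (limma, adjusted p = 0.00618). The scaled counts are the estimated counts of the deposited table after scaling between libraries. The markers of the labelled cell type were present, since all 8 β-cell genes were detected and their sum was 102880 to 166030 CPM (counts relative to the library total) in siCtrl and 104870 to 150960 CPM in siScrt1. Summed α-cell markers, almost all of it glucagon, ran from 213 to 582 CPM in siCtrl and from 210.2 to 463 in siScrt1, while summed acinar and endothelial markers stayed at or below 0.686 CPM in every library. Summed duct markers, nearly all Krt7, ran from 186.4 to 264.1 CPM in siCtrl and from 199.9 to 264.6 in siScrt1. Summed δ-cell markers reached 59.8 CPM in siCtrl and 68.0 in siScrt1, and summed mesenchymal markers reached 16.8 and 30.6. PP-cell, immune and proliferation markers each summed to at most 19.1 CPM. Neuronal and Schwann cell markers, which bear on synaptotagmins as genes first known from neurons, summed to 140.3 to 191.7 CPM in siCtrl and 144.7 to 187.6 in siScrt1, with Sox10 at 0 in all 10 libraries and nearly all of the sum from Tubb3 and Elavl4. No list of markers differed between the groups, with 0.246 as the lowest p of the exact two-sided permutation tests over the 11 lists (n = 5 per group).

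The level of each synaptotagmin in β-cells is given first, as TPM, a length-corrected measure of transcript abundance that allows genes to be set beside each other. Syt13, an atypical member without Ca2+ binding, was the most abundant in siCtrl at 251 ± 39.5 TPM, and Syt4 followed at 184 ± 22.0 TPM (SD, n = 5 for all levels in this paragraph). Syt7, the high-affinity Ca2+ sensor of insulin granules, was at 137 ± 10.9 TPM, and Syt5, a low-affinity sensor found on secretory granules, was at 72.1 ± 17.8 TPM. These 4 genes ranked 206, 305, 436 and 966 by mean TPM among the 12941 tested genes. Below them came Syt17, which acts in Golgi and endosomal transport, at 22.3 ± 1.84 TPM. Syt11, an inhibitor of endocytosis in neurons, and Syt14, an atypical member, were at 13.0 ± 1.73 and 11.8 ± 1.63 TPM. Syt3, another high-affinity Ca2+ sensor, was at 6.63 ± 1.40 TPM. Syt9, a Ca2+ sensor of dense-core granules whose name has been exchanged with Syt5 in part of the literature, was at 1.97 ± 0.402 TPM. Syt1, the Ca2+ sensor of fast synaptic transmission, came last at 0.210 ± 0.141 TPM, 9.39 times under Syt9.

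**Figure D1:**
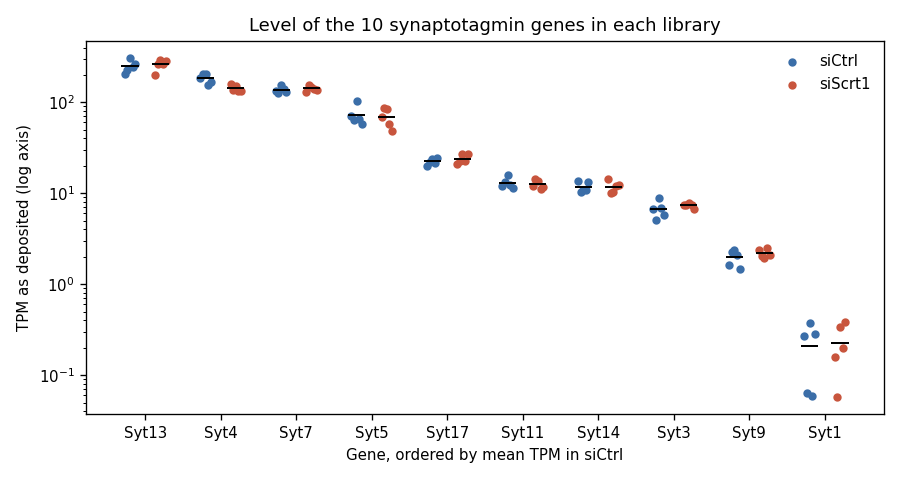
TPM of the 10 synaptotagmin genes in each of the 5 siCtrl and 5 siScrt1 libraries on a log axis, with bars at the group means. Levels span from 251 TPM (Syt13) to 0.210 TPM (Syt1) in siCtrl, and Syt4 is the gene whose siScrt1 points sit lowest against its siCtrl points.

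The order of levels was the same in both groups by the means, but the spacing of Syt4 changed. In siCtrl each gene was above the next in all 5 libraries with no overlap of TPM ranges, other than Syt11 and Syt14, whose ranges overlapped. The margins around Syt4 were narrow there, since its highest library was at 205.4 TPM against 206.8 for the lowest of Syt13, and its lowest was at 155.7 against 155.3 for the highest of Syt7. In siScrt1 Syt4 was at 143 ± 11.5 TPM and Syt7 at 142 ± 10.6 TPM (SD, n = 5), Syt4 was the higher of the pair in 2 of 5 libraries, and the ranges of the 2 genes overlapped. Syt13 was 1.36 times Syt4 in siCtrl and 1.82 times Syt4 in siScrt1 by mean TPM.

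The comparison of siScrt1 with siCtrl showed Syt4, the brake on Ca2+ sensitivity named above, as the synaptotagmin that stood lowest in siScrt1 relative to siCtrl. Its scaled counts were 11101, 12187, 12297, 9269.8 and 10022 in siCtrl replicates 1 to 5, and 9376, 8217, 9023, 7963 and 7892 in siScrt1 replicates A to E. The groups overlapped only in that siCtrl replicate 4 lay below siScrt1 replicate A. As CPM, which uses no scaling but the library total, the siCtrl libraries ran from 673 to 914 and the siScrt1 libraries from 543 to 624, without overlap. Scaling by library totals also put the median log2 fold change of all tested genes lower, at -0.030 against 0.0035 in the main fit. Among all genes tested, 2.96% had CPM without overlap between the groups, and Syt4 was 1 of 10 synaptotagmins to do so. In scaled counts 3.51% of tested genes and 0 of 10 synaptotagmins did not overlap.

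The log2 fold change of Syt4 was -0.36 (SE 0.09, 95% interval -0.56 to -0.17), which is a ratio of 0.777 (95% interval 0.677 to 0.891). In limma over all 12941 genes the adjusted p was 0.0967, so that Syt4 did not pass the threshold of 0.05, and its unadjusted p was 0.00159. The deposited table numbers the libraries of each group from 1 to 5, and no label states that equal numbers are pairs. With this number as a block, the same fold change had an SE of 0.07 and a limma adjusted p of 0.0210, which passes. Syt4 has 1 transcript, with the same values and the same fold change, and in the fit over transcripts it did not pass without the block (limma adjusted p = 0.176) or with it (limma adjusted p = 0.104). The call of Syt4 therefore depends on the block and on testing genes rather than transcripts. Syt4 was lower in siScrt1 in 5 of 5 same-numbered pairs, by log2 differences between -0.57 and -0.22. The share of all genes with the same sign in all 5 pairs was not counted. An exact two-sided permutation test on CPM gave p = 0.00794, the smallest value that 5 libraries against 5 can give, and p = 0.0159 on log2 scaled counts. The value on CPM restates the lack of overlap given above and is not further evidence. Syt4 was among the genes the study picked from these same libraries, so its direction here is not independent evidence. The study reports Syt4 as lower after Scrt1 knockdown, and also reports this direction by qPCR in sorted β-cells, which was not examined here. The study tested these libraries with Sleuth at an adjusted threshold of 0.05, a different test from limma, and Sleuth was not rerun here. In these bulk libraries a lower level cannot be told apart from fewer cells that express the gene. Nothing in the sources states that the libraries of a group came from separate animals, so p-values measure the spread between these libraries.

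**Figure D2:**
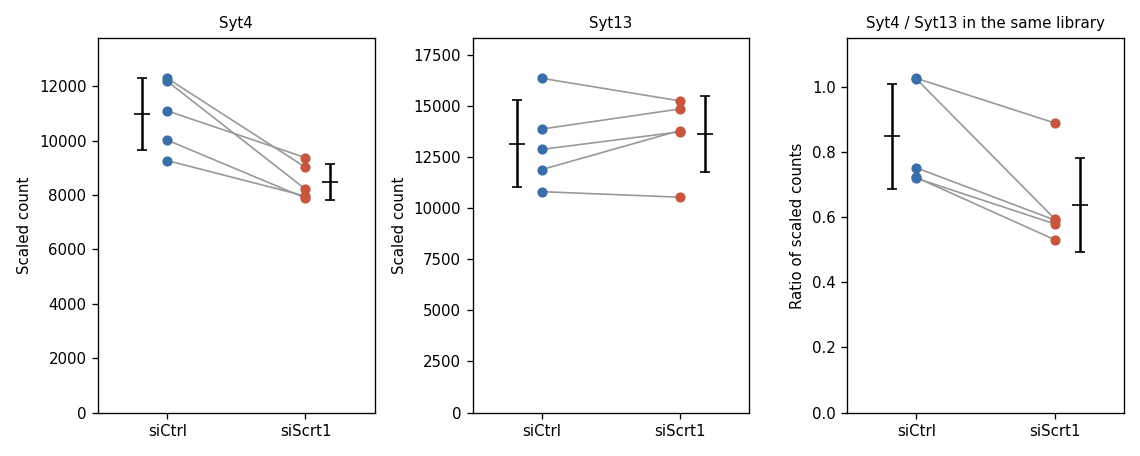
Scaled counts of Syt4 and Syt13 and their ratio within each library, with grey lines joining libraries of the same number in the deposited table, and black bars at mean ± SD (n = 5). All 5 lines fall for Syt4 and for the ratio, which has means of 0.848 in siCtrl and 0.637 in siScrt1, while the Syt13 lines go both ways.

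Syt13 was measured in the same libraries at a similar number of reads, 8357 to 17780. Its scaled counts were 10819, 11903, 16372, 12891 and 13888 in siCtrl and 10547, 13815, 15264, 13752 and 14872 in siScrt1. The groups overlapped over most of their range, and the log2 fold change was 0.05 (95% interval -0.21 to 0.32, limma adjusted p = 0.908). A ratio of 2 genes within a library does not depend on the scaling between libraries. The ratio of Syt4 to Syt13 in scaled counts was 1.03, 1.02, 0.751, 0.719 and 0.722 in siCtrl and 0.889, 0.595, 0.591, 0.579 and 0.531 in siScrt1. It was lower in siScrt1 in all 5 same-numbered pairs, but siScrt1 replicate A lay above 3 of the siCtrl libraries. Syt4 made up 26.4% ± 2.87 of the summed TPM of the 10 genes in siCtrl and 21.3% ± 2.46 in siScrt1 (SD, n = 5). The sum itself was 700.1 ± 76.4 TPM in siCtrl and 673 ± 47.4 TPM in siScrt1. The share of Syt7 in the sum was 19.7% ± 1.10 in siCtrl and 21.1% ± 0.837 in siScrt1 (SD, n = 5).

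Over all 10 synaptotagmins, 0 passed the adjusted threshold in limma without the block, against 1.05% of all genes tested. With the block 1 of 10 passed, Syt4, against 2.00% of all genes. At an unadjusted limma p under 0.05 there was 1 of 10, again Syt4, against 11.1% of all genes. By sign 6 were higher and 4 lower in siScrt1, and the median log2 fold change was 0.05, against 0.0035 over all genes tested.

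The classical Ca2+ sensors gave no call in either direction. Syt7 had scaled counts of 3315, 3129.9, 3853.5, 3427 and 3231 in siCtrl and 3227, 3873, 3678, 3433 and 3335 in siScrt1. These sets interleave, and the log2 fold change of 0.05 had the narrowest 95% interval of the 10 genes, from -0.11 to 0.21. Syt5 had 1844, 1687, 2703, 1691 and 1506 scaled counts in siCtrl and 1805, 2237, 2214, 1519 and 1255 in siScrt1. The Syt5 libraries of both groups were mixed in order, with siCtrl replicate 3 the highest and siScrt1 replicate E the lowest, and the log2 fold change was -0.07 (95% interval -0.45 to 0.32). Without siCtrl replicate 3 the sign turned, to 0.07, and likewise without siScrt1 replicate E, to 0.06.

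Syt3 was at 229 to 365 scaled counts in siCtrl, with a median of 292, and at 297 to 347 in siScrt1, with a median of 318. The siScrt1 libraries lay inside the siCtrl range, and the log2 fold change was 0.17 (95% interval -0.07 to 0.42, limma adjusted p = 0.606). Syt9 rested on 29 to 59 reads a library, and its log2 fold change of 0.16 (95% interval -0.22 to 0.54) allowed a change of either sign. Syt1 had only 13, 4, 26, 4 and 17 reads in siCtrl and 8, 3, 20, 13 and 26 in siScrt1. At this depth a difference in Syt1 was not detectable, as the 95% interval of its log2 fold change ran from -1.25 to 1.54 around 0.14, and the sign turned in 4 of the 10 fits that left out a single library.

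**Figure D3:**
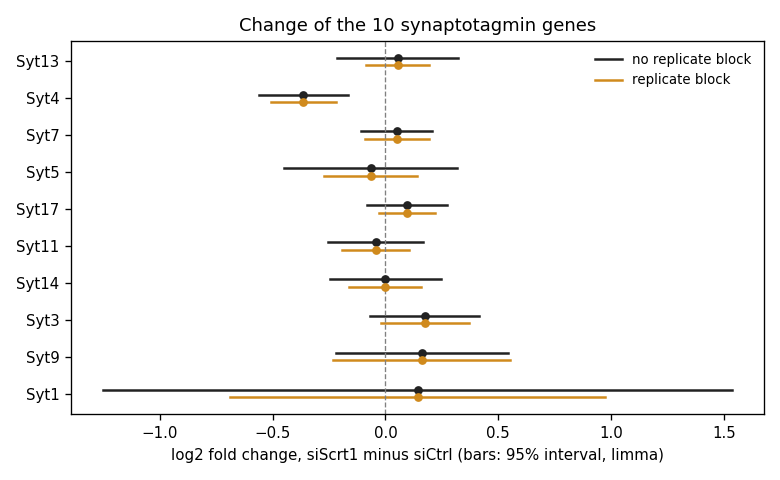
Log2 fold change of each synaptotagmin, siScrt1 minus siCtrl, with its 95% interval from limma without (black) and with (orange) the replicate block, ordered by level in siCtrl. The Syt4 interval lies below 0 in both fits (-0.56 to -0.17 and -0.51 to -0.22), and the other 9 intervals include 0 in both.

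Among the members that do not bind Ca2+ in the classical way, Syt11 shares the altered C2 domain of Syt4 but not its values. Syt11 had 743 to 1040.5 scaled counts in siCtrl, with a median of 808, and 734 to 943 in siScrt1, with a median of 776. The ranges overlapped widely and the log2 fold change was -0.04 (95% interval -0.26 to 0.17). Without siCtrl replicate 3 it was 0.03. Syt14 had 312 to 412 scaled counts in siCtrl and 306 to 428 in siScrt1, and group means of 356 in both, so that its log2 fold change was -0.00062 (95% interval -0.25 to 0.25).

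Syt17 was the only other member with the same sign in all 5 same-numbered pairs, a trait not counted over all genes. Its scaled counts were 734, 825, 890.4, 821 and 903 in siCtrl and 783, 856, 971, 858 and 999 in siScrt1. The pairs were 0.05 to 0.15 higher on the log2 scale, while the groups overlapped. The log2 fold change of 0.10 (95% interval -0.08 to 0.27) did not pass in limma without the block (adjusted p = 0.708) or with it (adjusted p = 0.423).

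The transcripts of these genes were examined next, because several encode isoforms. The table held 23 transcripts of the 10 genes, of which 20 had enough reads and 0 passed in limma, against 0.415% of the 17580 transcripts tested. With the block 0 passed as well, against 0.165% of transcripts, which is 29 in place of 73. Syt4, Syt5, Syt9, Syt11, Syt13 and Syt14 had 1 transcript each. Syt7 had 8, and it is known for splice forms that differ in the linker between the membrane anchor and the C2 domains. A transcript of 1440 bases carried 63.5% of Syt7 TPM in siCtrl and 62.1% in siScrt1, and 1 of 2311 bases carried 31.7% and 32.0%. Together they made up 95.2% ± 0.962 of Syt7 in siCtrl and 94.1% ± 1.30 in siScrt1 (SD, n = 5). Their ratio was 2.01 ± 0.0881 in siCtrl and 1.95 ± 0.132 in siScrt1 (SD, n = 5; exact two-sided permutation test, p = 0.437). Syt3 was carried by a transcript of 3224 bases at 83.5% in siCtrl and 83.7% in siScrt1, and Syt17 by 1 of 2627 bases at 90.5% and 89.8%. Reads shared between isoforms had been divided by estimation, and the uncertainty of that step is not in these errors.

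**Figure D4:**
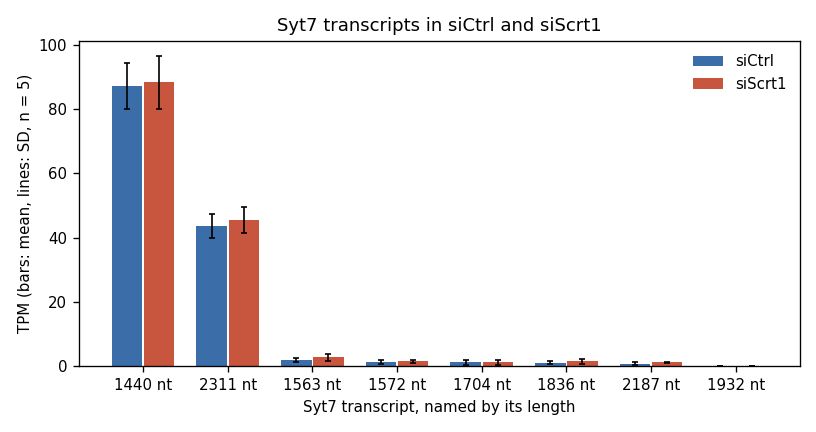
Mean TPM of the 8 annotated Syt7 transcripts, named by their length in nucleotides (nt), in siCtrl and siScrt1, with lines for the SD (n = 5). The 1440 nt and 2311 nt transcripts stand at 87.3 and 43.5 TPM in siCtrl, every other one is under 3 TPM in both groups, and the bars of the 2 groups are alike in height within the SD for the 2 main transcripts.

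The rest of the synaptotagmin family and its relatives were read from a list of 20 genes, of which 11 were tested. All carry C2 domains other than Rph3al, a Rab effector related to rabphilin. Of the 11, 0 passed in limma, against 1.05% of all genes without the block and 2.00% with it. At an unadjusted limma p under 0.05 there was 1 of 11, a share close to the 11.1% of all genes. This was Esyt2, a tether between the endoplasmic reticulum and the plasma membrane. Esyt2 was at -0.18 on the log2 scale with an SE of 0.07 (limma, adjusted p = 0.305). By sign 4 were higher and 7 lower, with a median log2 fold change of -0.04. The list holds Sytl4, or granuphilin, which docks insulin granules at the plasma membrane through Rab27a. Sytl4 stood at 212 ± 11.6 TPM in siCtrl and 196 ± 13.8 TPM in siScrt1 (SD, n = 5), above Syt4 in level in both groups, and differed by -0.14 on the log2 scale with an SE of 0.06 (limma, adjusted p = 0.456). The 3 tested synaptotagmins of this list, Syt2, Syt12 and Syt16, had log2 fold changes of 0.22, 0.32 and -0.19, with limma adjusted p-values of 0.906, 0.635 and 0.813. With the block Syt12, higher in siScrt1, had an unadjusted limma p of 0.00251 and an adjusted p of 0.0839. In that fit 3 of the 11 relatives had an unadjusted p under 0.05, against 2078 of the 12941 genes. Syt6, Syt8, Syt10 and Syt15 had 7 or fewer reads in every library and were not tested.

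The partners of synaptotagmins in regulated exocytosis formed a list of 31 genes, of which 28 were tested, 17 higher and 11 lower in siScrt1 with a median log2 fold change of 0.05. The neuronal and endocrine SNARE proteins, the direct partners of Ca2+ sensors in membrane fusion, showed no call. Stx1a had a log2 fold change of 0.06 (SE 0.11), Snap25 of 0.04 (SE 0.08) and Vamp2 of 0.15 (SE 0.11), with limma adjusted p-values of 0.889, 0.887 and 0.641. In limma without the block 0 of 28 passed, against 1.05% of all genes. An unadjusted p under 0.05 was reached by 3 of 28, a share close to the 11.1% of all genes. These were Rab3d, Cplx2 and Rims1, named here after their values were seen.

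Rab3d, a small GTPase of secretory granules, was at 2269 to 2731 scaled counts in siCtrl and 1371 to 2022 in siScrt1, without overlap. Its log2 fold change was -0.49 (SE 0.11), with a limma adjusted p of 0.0513 without the block and 0.00844 with it. Rab3d passed under 5 of 20 alternatives, namely the block, scaling by library totals, the stricter filter, a pseudocount of 5, and without siScrt1 replicate C, and its log2 fold change stayed between -0.55 and -0.41 in all 20. Nsf, the ATPase that takes spent SNARE complexes apart, overlapped between the groups at 1437 to 2046 and 1185 to 1871 scaled counts (log2 fold change -0.27, SE 0.12), and its limma adjusted p was 0.454 without the block and 0.0386 with it. These were the 2 of 28 partners that passed with the block, against 2.00% of all genes, and both were lower in siScrt1. Cplx2, which binds assembled SNARE complexes and clamps or promotes fusion, was at 1855 to 2354 scaled counts in siCtrl and 2413 to 2679 in siScrt1 without overlap (0.23 on the log2 scale with an SE of 0.07; limma, adjusted p = 0.192). Rab3d and Cplx2 were the 2 of 28 partners without overlap in scaled counts, against 3.51% of all genes. Rims1, an active zone scaffold, rested on 5 to 46 reads a library and was at 1.10 on the log2 scale with an SE of 0.42 (limma, adjusted p = 0.329).

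**Figure D5:**
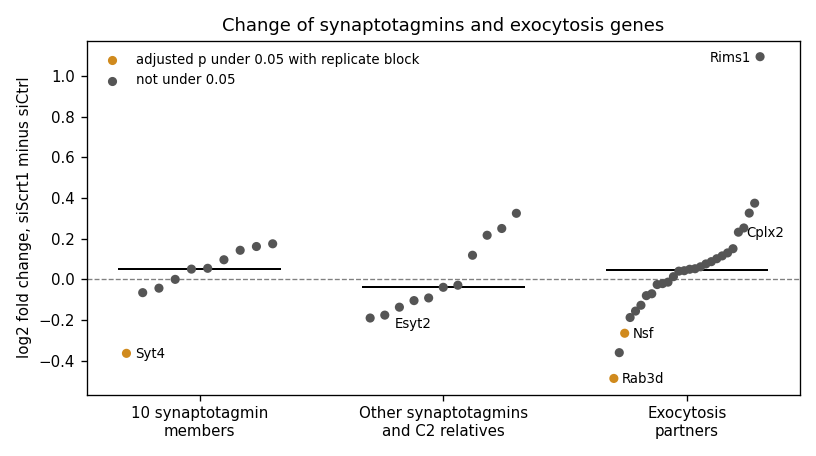
Log2 fold change, siScrt1 minus siCtrl, of the 10 synaptotagmins, the 11 tested relatives and the 28 tested exocytosis partners, sorted within each list, with bars at the medians (0.05, -0.04 and 0.05). Orange marks the 3 genes with an adjusted p under 0.05 in limma with the replicate block, Syt4, Nsf and Rab3d, all below 0.

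The genes whose pattern over the 10 libraries was most like that of Syt4 were found among 10124 tested genes at a mean of 5 CPM or more, by the root mean square difference of log2 values after each gene was centred on its mean. Nt5c3a, a pyrimidine nucleotidase, was closest at 0.0492, followed by Sfxn1, a mitochondrial serine transporter, at 0.0762, Btg1, an antiproliferative factor, at 0.0863, RGD1310852 at 0.0903 and Eif3m, a translation initiation factor subunit, at 0.0919. For scale, Syt4 itself varied around its own mean by 0.226 in this measure. All 5 were lower in siScrt1, which follows from their likeness to Syt4, with log2 fold changes between -0.42 and -0.33. No gene among them belongs to the lists of relatives or partners. These lists hold only 20 and 31 genes, so 5 genes out of 10124 would rarely include a listed gene. The members themselves were left out of the ranking.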

How the data were processed

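RNA of 10 libraries was sequenced as single-end reads, and the authors aligned them to the Rnor6 transcriptome with kallisto and tested them with Sleuth (tools as in the submitters' processing notes and the study's methods, versions not given in the sources used here). The deposited table gives a signal, the estimated count scaled between libraries by the authors, and a deposited TPM value for each of 31715 transcripts in each library. A further 9363 rows without values were left out. Dividing by what 1 read was worth (0.842 to 1.26 scaled counts) gave the estimated reads and CPM used here, with library totals within 0.00364 of a whole number. Of transcript values above 0, 50.0% were whole within 0.01 read and the others were fractions, as kallisto divides shared reads. Because the values were scaled, the main fit used no count model, and limma-voom on the estimated reads was run only as an alternative.

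Scaled counts were summed per Ensembl gene and tested as log2(value + 0.5), a scale on which changes of genes with few reads come out too small, with limma 3.58.1 in R 4.3.3 (lmFit, eBayes with trend), group as the only term and Benjamini-Hochberg adjustment over all genes tested. Genes needed 15 reads in all and, in 5 or more libraries, the CPM that 10 reads make in the median library. Transcripts needed 5 reads in at least 47% of libraries. The deposited table numbers libraries from 1 to 5 in each group. Deviations from the group means correlated between same-numbered libraries over 12941 genes at 0.351, 0.131, 0.231, 0.198 and 0.234. Between libraries of different numbers they correlated at -0.179 to 0.167, which reaches above the lowest same-numbered value. No label states what the number means, so the pairing is an assumption drawn from these values. A fit with this number as a block is given where it changes a call and for some other genes.

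Single values were compared with exact two-sided permutation tests (scipy 1.17.1). Tables and plots were made with the package data.table (1.17.8), pandas 2.3.3 and matplotlib 3.10.9 in Python 3.11.15. The limma fits of genes and of transcripts without the block were tested on simulated data, and the fit with the block was not. Named genes were the 10 members, Scrt1, the relatives and partners by list, with values for partners under the threshold and for Stx1a, Snap25 and Vamp2, and the 5 genes most like Syt4. Values of Esyt2, Sytl4, Syt2, Syt12, Syt16, Cplx2 and Rims1 are given outside this rule, chosen after they were seen. The members and all lists were chosen with earlier results of these data known. Alternatives were other scalings, filters, pseudocounts, TPM, limma-voom, the block and leaving out each library. Promoters were matched by symbol in a RefSeq table that held 6 of the 10 genes.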

Additional observations from a re-analysis of the deposited data

Results flagged for a closer look

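The Syt5 scaled count in siCtrl replicate 3 was 2703.4, far above the other 4 siCtrl libraries, which ran from 1506 to 1844 scaled counts. It was the only 1 of 20 groups of 5 libraries (10 genes in 2 groups) in which the gap to the next library, divided by the range, passed Dixon's critical value, and chance flags about 1 in 20 groups. The same library was the highest siCtrl library in scaled counts for 8 of the 10 genes, all but Syt14 and Syt17.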

How the results depend on the processing

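Syt4 was lower in siScrt1 under every scaling, filter, pseudocount, unit and model tried and without each library in turn, with log2 fold changes from -0.42 to -0.32 and limma adjusted p from 0.0564 to 0.257 in fits without the block. Only the replicate block brought it under the threshold (log2 fold change -0.36, limma adjusted p = 0.0210), and it raised the members called from 0 to 1 and the genes called from 136 to 259. It changed no other member's call. For transcripts it lowered the calls from 73 to 29, with 0 of 20 member transcripts passing in either fit, Syt4 included. Leaving out a single library gave 62 to 133 genes called, with 62 without siScrt1 replicate D, 64 without siScrt1 replicate E, 77 without siCtrl replicate 5, 82 without siCtrl replicate 4, 83 without siScrt1 replicate B and 87 without siScrt1 replicate C, and 0 members. Signs turned only for members with changes near 0 or few reads, and the cause was not tested. Syt14 was at 0.015 with upper-quartile scaling, 0.0038 and 0.0040 with TPM at pseudocounts of 1 and 0.1, and between -0.069 and 0.054 without a library. Without a library Syt1 ranged from -0.19 to 0.63, Syt5 from -0.15 to 0.072, Syt11 from -0.095 to 0.032 and Syt13 from -0.014 to 0.14. Scaling by library totals and the counts over all genes were added after seeing the data. The stricter filter left out Syt1 and Syt9. The planned count test was not run, a choice made because the values were scaled, although limma-voom was run on the estimated reads. Depth limits Syt1 and Syt9 most.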
